A study of Mus musculus with 9 samples.

Results

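The 8 genes Myb, Runx1, Hhex, Lyl1, Meis1, Erg, Ikzf1 and Etv6 encode transcription factors that regulate blood stem and progenitor cells. They were chosen by name, with earlier results of these data known, and all 8 were found among the 27999 rows of the deposited count table. The RNA came from the mouse line G1E, red cell progenitors in which the Gata1 gene is disrupted, so all groups share that defect. The cells were grown with murine stem cell factor (SCF) and erythropoietin (EPO), and were infected with virus made in 293T cells from the HMD vector carrying a human GATA1 mutant cDNA, carrying human wildtype GATA1, or empty. Each of the 3 groups held 3 libraries, called biological replicates by the submitters. The mutation, the time from infection to lysis and any selection of infected cells were not known. G1E is a single cell line, so the libraries do not sample different animals.

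GATA1 is the factor that takes a red cell progenitor into maturation. Stem and progenitor cells use another set of regulators that keep them dividing and uncommitted, and several of these bind DNA side by side with the related factor GATA2 at shared enhancers. MYB drives progenitor proliferation and is known to decline as erythroid cells mature. RUNX1 sets up definitive blood formation with its partner CBFB. ERG and ETV6 belong to the ETS family, LYL1 is the close relative of TAL1, MEIS1 and HHEX carry homeodomains, and IKZF1 (Ikaros) is a zinc finger protein best known from lymphocytes.

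The promoters of the 3 members whose level differed in the tests below (Myb, Hhex and Etv6), and the only member promoter with a GATA match (Erg start 3), are shown for their letters just upstream of the transcript start. All 8 members matched RefSeq's promoter table (GRCm38.p6), with 12 transcript starts among them, and each sequence is the 250 bases before a start, 5′ to 3′ on the gene's strand. Capitals mark matches on either strand to 5 motifs: the GATA box, written as AGATAA or AGATAG or TGATAA or TGATAG, ETS (AGGAAG or CGGAAG), RUNX (TGTGGT or TGCGGT), E-box (CAGCTG or CAGATG) and MYB (TAACNG). The chosen letters do not overlap one another in these 4 windows.
Myb, chr10:21160985-21161234, minus strand: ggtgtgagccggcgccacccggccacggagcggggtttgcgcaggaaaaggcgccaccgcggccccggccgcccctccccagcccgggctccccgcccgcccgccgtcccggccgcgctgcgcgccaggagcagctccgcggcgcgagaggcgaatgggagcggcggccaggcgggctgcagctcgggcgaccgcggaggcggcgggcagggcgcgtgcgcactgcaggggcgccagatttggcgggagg
Hhex, chr19:37434591-37434840, plus strand: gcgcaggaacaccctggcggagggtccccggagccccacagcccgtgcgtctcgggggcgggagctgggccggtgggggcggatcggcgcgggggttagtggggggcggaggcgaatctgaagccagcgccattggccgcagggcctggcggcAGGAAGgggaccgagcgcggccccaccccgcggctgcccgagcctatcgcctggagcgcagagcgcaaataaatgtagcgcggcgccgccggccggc
Etv6, chr6:134035450-134035699, plus strand: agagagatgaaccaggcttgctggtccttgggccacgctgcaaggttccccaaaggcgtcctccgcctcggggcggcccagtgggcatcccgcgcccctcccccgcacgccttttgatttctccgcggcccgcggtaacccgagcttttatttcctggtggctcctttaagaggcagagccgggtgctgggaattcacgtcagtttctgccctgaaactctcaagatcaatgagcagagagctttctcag
Erg, start 3, chr16:95459349-95459598, minus strand: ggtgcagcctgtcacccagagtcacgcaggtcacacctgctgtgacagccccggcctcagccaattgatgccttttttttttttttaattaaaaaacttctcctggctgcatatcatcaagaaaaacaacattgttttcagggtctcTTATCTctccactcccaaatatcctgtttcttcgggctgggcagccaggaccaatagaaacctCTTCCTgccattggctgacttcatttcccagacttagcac
The Myb and Etv6 windows held none of these letters. The Hhex window held 1 ETS match, 97 to 92 bases upstream of the start. The Erg window held a GATA match 103 to 98 bases upstream and an ETS match 40 to 35 bases upstream. GATA letters were present in 1 of the 12 member windows, against 26.5% of 32851 windows of the same length in the table, and ETS letters in 6 of the 12, against 39.2%. RUNX, E-box and MYB letters were in 18.6%, 25.5% and 19.8% of all windows. The G and C content was 81.2% for Myb, 76.0% for Hhex, 60.4% for Etv6 and 47.2% for Erg start 3, against a median of 52.4% over all windows, and it ranged from 36.0% to 82.0% over the 12 member windows. These matches are a description of the letters and not of binding.

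The libraries held 11364358 to 17289307 counts, and 9978 mouse genes passed the filter on low counts. Human GATA1 averaged 653 ± 53.9 counts per 1e6 of the unscaled library total with the mutant and 817 ± 103 on the same scale with the wildtype (SD, n = 3 each), while the empty vector libraries held 0 to 2 counts. CPM values are instead counts per 1e6 of the counts of the 9978 filtered mouse genes, scaled by TMM factors, edgeR's correction for composition. The summed levels of Erg are the exception marked below. The 8 erythroid markers were all tested, with summed levels of 2660 to 2886 CPM with the mutant, 16766 to 26509 CPM with wildtype GATA1 and 1624 to 2027 CPM with the empty vector. Hbb-bs alone made up most of the wildtype sum, at 11087 to 21400 CPM. Against the empty vector, 8 of the 8 were called higher with the wildtype and 3 with the mutant, against 11.4% and 0.21% of all tested genes. Of 12 lymphoid markers 0 passed the filter, 7 (among them Pax5, Cd3e and Rag1) had no count in any library, and their summed level was at most 0.735 CPM in any library. Mutant replicates 1 and 2 stood apart in being alike: their chi-square per degree of freedom was 2.21 over 9887 genes, against 14.97 to 55.5 for the other within-group pairs. They still differed by more than sampling noise and were kept as separate libraries, and results that move when they are summed are marked.

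Lyl1 was the most abundant member per exon length and Meis1 and Erg were close to absent. Per kilobase of annotated exon, Lyl1 stood at 234 ± 29.2 CPM with the mutant, 194 ± 33.2 CPM with wildtype GATA1 and 222 ± 26.4 CPM with the empty vector (SD, n = 3). These levels lay above those of 97.8%, 96.7% and 97.7% of 9660 tested genes. Ikzf1 came next in every group, at 32.4 ± 2.12, 36.0 ± 3.54 and 29.1 ± 2.34 CPM per kb in mutant, wildtype and empty vector libraries. Hhex, Myb, Etv6 and Runx1 followed in that order in each group, from 10.4 to 3.59 CPM per kb with the mutant, from 4.79 to 2.94 CPM per kb with the wildtype and from 14.0 to 3.36 CPM per kb with the empty vector. Neighbouring members in the order did not overlap in their library ranges, except Hhex and Myb with the wildtype, and Meis1 and Erg with the mutant and with the wildtype. Meis1 and Erg were below 0.17 CPM per kb in every library. Exon length is the union of all annotated transcripts, so a member that uses short transcripts is understated.

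**Figure D1:**
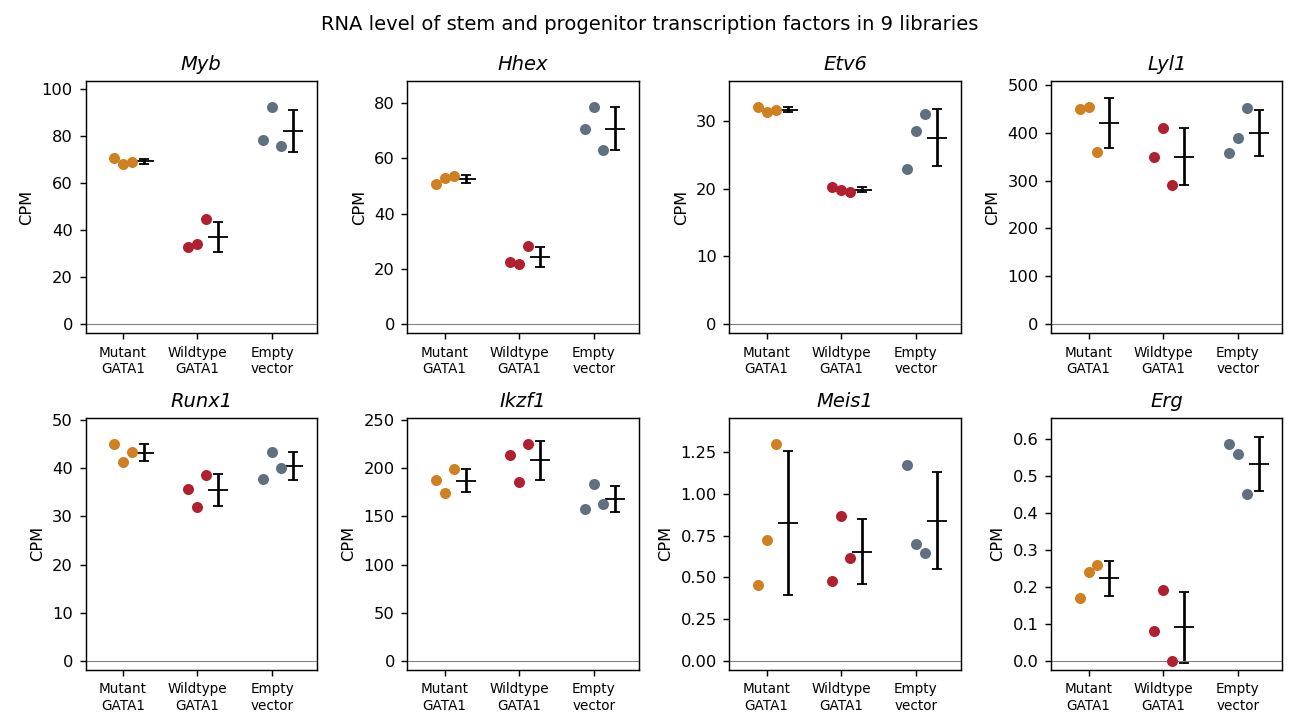
CPM (TMM-scaled) of each of the 8 members in the 9 libraries, with a panel and a linear scale for each gene; points are single libraries, and the bar beside them is the mean ± SD of 3. Myb and Hhex are lowest in the wildtype libraries with no overlap with either other group, while Lyl1 overlaps across all groups and Erg and Meis1 lie near 0 to 1.3 CPM.

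Myb, Hhex and Etv6 were lower with wildtype GATA1. Myb averaged 37.1 ± 6.51 CPM with the wildtype against 82.1 ± 8.94 CPM with the empty vector (SD, n = 3 each), so the wildtype mean was 45.2% of that with the empty vector. Hhex, a homeodomain repressor of early blood and liver development, averaged 24.2 ± 3.59 and 70.7 ± 7.74 CPM in the same order, or 34.3%. Etv6, an ETS repressor needed for adult stem cells, averaged 19.8 ± 0.332 CPM with the wildtype against 27.5 ± 4.21 CPM with the empty vector, or 72.2%. In bulk RNA, fewer cells of a type and less RNA per cell cannot be told apart.

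In single libraries, Myb stood at 32.8, 34.0 and 44.6 CPM with the wildtype, against 78.4, 92.3 and 75.6 CPM with the empty vector. Hhex stood at 22.5, 21.9 and 28.4 CPM with the wildtype, against 70.5, 78.5 and 63.0 CPM with the empty vector. Etv6 stood at 20.2, 19.8 and 19.5 CPM with the wildtype, against 22.8, 28.5 and 31.0 CPM with the empty vector. All wildtype libraries lay below all empty vector libraries for these 3 genes. For Etv6, empty vector replicate 1 came closest to the wildtype values.

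In edgeR's quasi-likelihood test, Myb had a log2 fold change of −1.14 ± 0.14 (SE, adjusted p 7.3e-05), Hhex −1.54 ± 0.14 (adjusted p 5.3e-06) and Etv6 −0.47 ± 0.14 (adjusted p 0.0295). Thus 3 of the 7 tested members were called lower, against 11.9% of all 9978 tested genes called lower in this comparison and 23.3% called in either direction. As the members were chosen with earlier results of these data known, such shares are a description and no test of the set. The members' median log2 fold change was −0.36, against −0.04 over all tested genes. That median is the value of Meis1, measured at few counts and not called (SE 0.48). Higher calls numbered 0 in edgeR, 1 at an unadjusted p under 0.05 and 1 in DESeq2, in each case Ikzf1. At that unadjusted threshold 3 members were lower besides the 1 higher, against 36.5% of all tested genes in either direction. The groups did not overlap for 4 of the 7 tested members, against 32.6% of all tested genes.

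The calls of Myb and Hhex held under all 16 alternatives, with adjusted p-values up to 0.000987 and 9.2e-05. That of Etv6 was lost under 9 of the 16 (adjusted p 0.0067 to 0.113 over all of them): when replicate 1 or 2 of the mutant, 1 or 2 of the wildtype, or 2 or 3 of the empty vector was left out, with mutant replicates 1 and 2 summed, with a replicate block, and with only the 6 libraries compared.

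Ikzf1 had the opposite sign. It stood at 213, 186 and 225 CPM with the wildtype, against 158, 184 and 163 CPM with the empty vector. The lowest wildtype library lay just above the highest empty vector library, so the groups did not overlap. The log2 fold change was 0.31 ± 0.12 and missed the threshold in edgeR (adjusted p 0.0727). It passed with RLE size factors (0.0456), in DESeq2 (0.0283) and without wildtype replicate 2 (0.0465).

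Lyl1 and Runx1 were not called with the wildtype. Lyl1, a basic helix-loop-helix factor of stem cells, stood at 348, 410 and 290 CPM with the wildtype, against 358, 389 and 452 CPM with the empty vector. Runx1 stood at 35.6, 32.0 and 38.6 CPM with the wildtype, against 37.8, 43.4 and 40.1 CPM with the empty vector. The ranges of the groups overlapped for both genes, and the log2 fold changes were −0.19 ± 0.15 for Lyl1 (adjusted p 0.371 in edgeR) and −0.19 ± 0.12 for Runx1 (adjusted p 0.287). Counts per gene do not tell the transcripts of the 2 Runx1 starts apart.

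Erg and Meis1 were measured at a few counts per library. Erg, an ETS factor of stem cells and megakaryocytes, did not pass the filter: it had 3, 4 and 4 counts in the mutant libraries, 1, 2 and 0 counts in the wildtype libraries and 8, 8 and 7 counts in the empty vector libraries. Every empty vector library thus held more Erg counts than any other library. Summed over each group the level was 0.221 CPM with the mutant (95% counting interval 0.110 to 0.396), 0.0874 CPM with the wildtype (0.0180 to 0.256) and 0.529 CPM with the empty vector (0.335 to 0.793). These summed levels and the ratios between them used TMM-scaled totals of all counts, a slightly different scale from the other CPM values.

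The Erg ratio to the empty vector was 0.165 with the wildtype (95% counting interval 0.0318 to 0.547) and 0.418 with the mutant (0.184 to 0.893). These intervals are exact only for independent counts and leave out the spread between libraries. No molecular identifiers were used to tell molecules from copies, so the intervals may be too narrow even for counting error. The exact two-sided permutation test of the CPM gave p = 0.1 for each of these differences, the smallest that 3 against 3 libraries allow. Fitted with no filter on low counts over 15023 genes, Erg had an adjusted p of 0.0423 in edgeR with the wildtype and 0.524 with the mutant.

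Meis1, the HOX cofactor, passed the filter narrowly. It had 8, 12 and 20 counts with the mutant, 6, 9 and 7 counts with the wildtype and 16, 10 and 10 counts with the empty vector. The groups overlapped, and the log2 fold change was −0.36 ± 0.48 with the wildtype (adjusted p 0.62 in edgeR) and −0.03 ± 0.43 with the mutant (adjusted p 0.978). No difference was detectable for Meis1 at this depth.

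With the mutant against the empty vector, 0 of the 7 tested members were called in either direction in edgeR or in DESeq2. Only 0.271% of all 9978 tested genes were called in this comparison, 0.21% higher and 0.0601% lower. At an unadjusted p under 0.05, Hhex was lower and 0 members were higher, against 12.9% of all tested genes in either direction. Hhex averaged 52.4 ± 1.45 CPM with the mutant and 70.7 ± 7.74 CPM with the empty vector (SD, n = 3 each). Its single mutant libraries held 50.8, 53.0 and 53.4 CPM, all below the lowest empty vector library.

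Myb stood at 70.5, 68.2 and 68.9 CPM in the mutant libraries, also below all empty vector libraries. Etv6 stood at 32.0, 31.2 and 31.6 CPM in the mutant libraries, above all empty vector libraries, though the highest of those was at 31.0 CPM. The log2 fold changes against the empty vector were −0.43 ± 0.13 for Hhex (adjusted p 0.304 in edgeR), −0.25 ± 0.14 for Myb (0.453) and 0.20 ± 0.14 for Etv6 (0.52). Groups without overlap numbered 3 of 7, against 15% of all tested genes. The Hhex value was called lower without empty vector replicate 3 (adjusted p 0.0434), where 837 genes were called in all, against 27 with that library.

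Ikzf1 stood at 188, 175 and 199 CPM in the mutant libraries, Lyl1 at 448, 453 and 360 CPM, and Runx1 at 45.0, 41.4 and 43.3 CPM. Each of these sets overlapped the empty vector libraries, and their log2 fold changes were 0.15 ± 0.12, 0.07 ± 0.15 and 0.10 ± 0.12.

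The mutant and wildtype groups were compared directly, which asks where the forms differed. This comparison does not tell a missing effect of the mutant from a shift the other way. Hhex, Myb and Etv6 were higher with the mutant: their means were 216%, 186% and 159% of those with the wildtype. The log2 fold changes of mutant over wildtype were 1.11 ± 0.14 for Hhex (adjusted p 9.9e-05 in edgeR), 0.90 ± 0.14 for Myb (0.000574) and 0.67 ± 0.14 for Etv6 (0.00417). All mutant libraries lay above all wildtype libraries for these 3 genes, and the calls held under all 17 alternatives, with adjusted p-values up to 0.0257.

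For Etv6 the mutant and wildtype groups stood at 31.6 ± 0.379 and 19.8 ± 0.332 CPM, with wider values with the empty vector. At 487 to 566 counts per library with the mutant and 206 to 252 with the wildtype, these SDs are below counting error. They are thus no measure of how far libraries of these groups spread. Mutant replicates 1 and 2 were also unusually alike, as given above. Higher calls were 3 of 7 tested members, against 13.2% of all tested genes called higher and 25.9% in either direction. Lower calls were 0 in edgeR, 0 at an unadjusted p under 0.05 and 0 in DESeq2. At that unadjusted threshold 4 of 7 members were higher, against 39.1% of all tested genes in either direction. Groups did not overlap for 4 of 7, against 44.2% of all tested genes. The median log2 fold change of the members was 0.33, against −0.01 over all tested genes. Here too the median is the value of Meis1, which was not called (SE 0.48). Comparisons with the empty vector share those 3 libraries, so the direct comparison is the one that shows the difference between the forms.

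Lyl1 and Runx1 were called between mutant and wildtype under 1 of 17 alternatives. Without pairing by replicate number, the log2 fold changes of mutant over wildtype were 0.27 ± 0.15 for Lyl1 (adjusted p 0.203 in edgeR) and 0.29 ± 0.12 for Runx1 (adjusted p 0.103). With all 9 libraries blocked by number neither was called (adjusted p 0.24 for Lyl1 and 0.174 for Runx1), and 3 of 7 members were higher with the mutant. In a fit of the 6 libraries blocked by number, chosen after seeing the data, both were called higher with the mutant, at adjusted p 0.0113 for Lyl1 and 0.0231 for Runx1, and the count of members was 5 of 7. That fit called 4740 of 9846 genes. In each of the 3 pairs, Lyl1 and Runx1 were higher in the mutant library. For Runx1 all mutant libraries lay above all wildtype libraries, so this holds for any pairing.

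Ikzf1 (−0.15 ± 0.12, adjusted p 0.351) and Meis1 (0.33 ± 0.48, adjusted p 0.64) were not called between mutant and wildtype, with or without the block. The Erg ratio of mutant to wildtype was 2.53, with a 95% counting interval of 0.668 to 14.1 and an exact two-sided permutation p of 0.2. Human GATA1 RNA was itself lower with the mutant on average (653 against 817 per 1e6 unscaled counts), and its part in these differences was not tested.

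**Figure D2:**
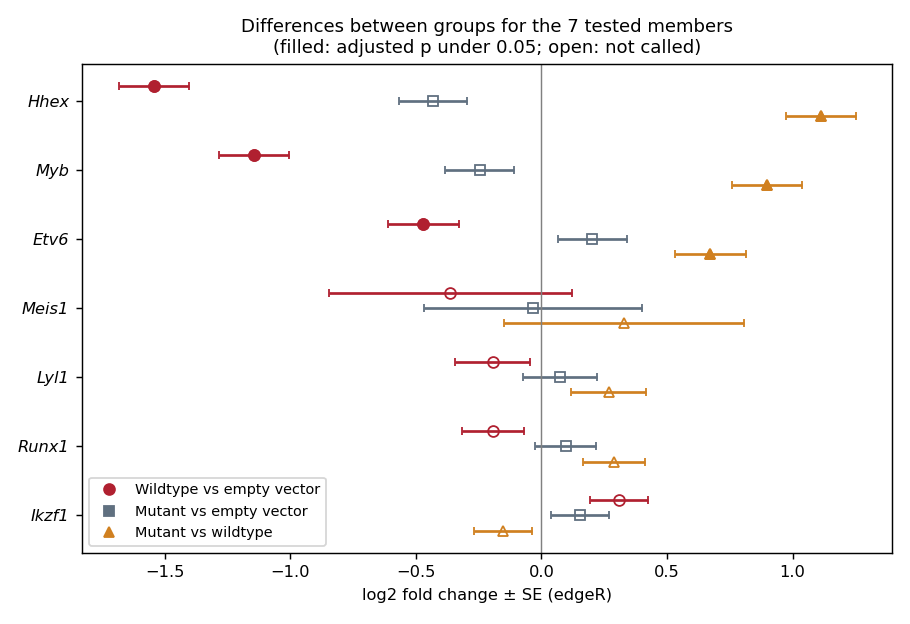
log2 fold change with its SE for the 7 tested members in 3 comparisons; circles are wildtype against empty vector, squares mutant against empty vector and triangles mutant against wildtype, and filled symbols have an adjusted p under 0.05 in edgeR. Hhex, Myb and Etv6 are filled for the 2 comparisons with the wildtype, and no square is filled.

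How many reads of overlapping genes the members' counts hold was not known, and the counts of those genes do not bound it. Smart-seq2 libraries keep no strand, so reads from antisense partners cannot be told apart from those of the member. Nfix, on the opposite strand to Lyl1 with overlapping exons, had 18 to 68 counts per library against 3305 to 7933 for Lyl1. The antisense genes annotated over Myb, Runx1, Ikzf1, Meis1 and Etv6 had at most 8 counts in any library, for those listed in the table. Gm37818, on the same strand as Meis1 with overlapping exons, was not among the counted genes.

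Genes next to the members were compared to see whether neighbours moved with them. Hhex (chromosome 19, 37434810 to 37440731, GRCm38) lies 13 kb from Kif11, a mitotic motor, and 109.7 kb from Exoc6, an exocyst subunit. With the wildtype against the empty vector, Kif11 had a log2 fold change of 0.08 ± 0.14 and Exoc6 −0.12 ± 0.14, and neither was called.

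Myb (chromosome 10, 21124935 to 21160984) lies 44.5 kb from Ahi1, a gene of the primary cilium, and 135.0 kb from Hbs1l, a ribosome rescue factor. Ahi1 fell with the wildtype (log2 fold change −0.78 ± 0.15), to 21.0 ± 2.38 CPM against 36.1 ± 4.84 CPM with the empty vector. It averaged 37.5 ± 2.23 CPM with the mutant, higher than with the wildtype (0.83 ± 0.15). Both Ahi1 calls held under every alternative run. Hbs1l had −0.15 ± 0.10 and was not called.

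Etv6 (chromosome 6, 134035700 to 134270158) lies 176.3 kb from Lrp6, a WNT coreceptor, and its other tested neighbour is 924.8 kb away; neither was called. Beside Erg (chromosome 16, 95359169 to 95586593), the ETS gene Ets2 lies 115.5 kb away and fell with the wildtype, to 59.7 ± 9.15 CPM against 139 ± 14.9 CPM (log2 fold change −1.22 ± 0.13). The tested neighbours of Lyl1 and Runx1 were not called in any of the 3 comparisons. For Ikzf1 the close neighbour Fignl1, 14.5 kb away, was not called, and Upp1, the next tested gene on the other side at 2549 kb, fell with the wildtype (−1.28 ± 0.21). Spred2, 905.4 kb from Meis1, was called lower with the wildtype (−0.73 ± 0.22), a call lost in the fit of the 6 libraries and when wildtype replicate 1, wildtype replicate 2 or empty vector replicate 2 was left out.

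**Figure D3:**
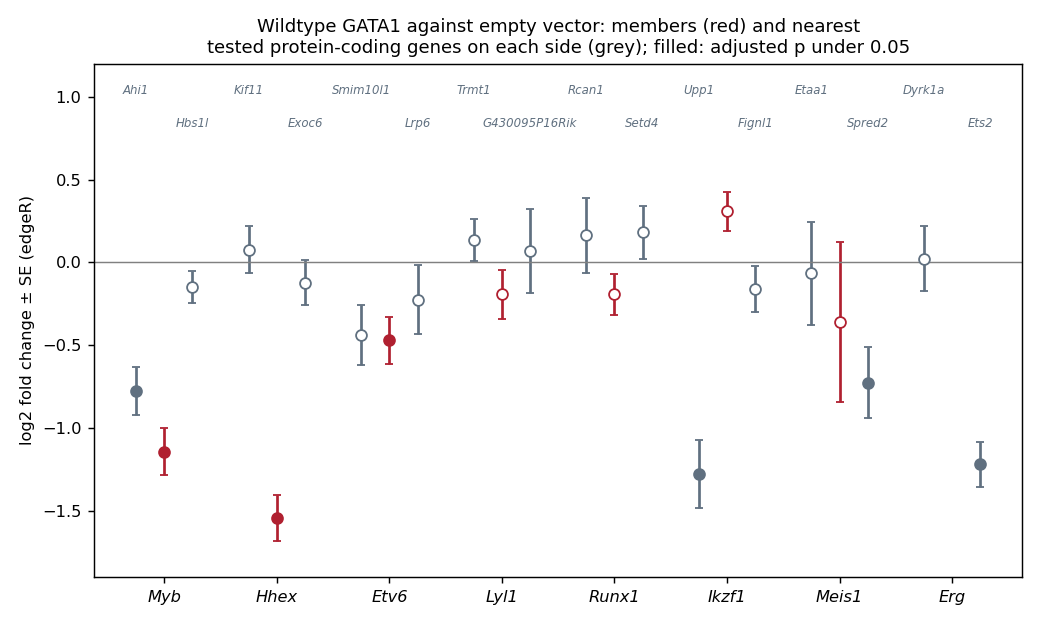
log2 fold change with its SE for wildtype GATA1 against the empty vector; red points are the members (Erg was not tested) and grey points the nearest tested protein-coding gene on each side, whose names stand above them, with filled points at an adjusted p under 0.05 in edgeR. Ahi1 (beside Myb), Ets2 (Erg), Upp1 (Ikzf1) and Spred2 (Meis1) are filled, while both genes beside Hhex are open.

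The related lists held 112 distinct genes, of which 57 were tested, and 21 were called lower and 4 higher with the wildtype, against 11.9% lower and 11.4% higher among all tested genes. With the mutant against the empty vector 0 were called in edgeR, though 7 were higher and 4 lower at an unadjusted p below 0.05, and DESeq2 called 1 lower. Without empty vector replicate 3, genes of several of these lists were called with the mutant. Between mutant and wildtype, 23 were higher and 4 lower with the mutant, against 13.2% and 12.7% of all tested genes. The lists were chosen with earlier results of these data known, so these shares are a description. The direction was not tested for the lists as such.

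Among partners of RUNX1, Cbfb, which encodes the partner that strengthens its DNA binding, averaged 14.6 CPM with the mutant, 10.9 CPM with wildtype GATA1 and 28.5 CPM with the empty vector. Its fall with the wildtype (log2 fold change −1.39 ± 0.37, adjusted p 0.0168 in edgeR) did not pass when replicates 1 or 2 of either the wildtype or the empty vector were left out. Cbfa2t2, a corepressor of the ETO family, fell with the wildtype (−0.58 ± 0.12), and Cbfa2t3, the ETO2 corepressor of erythroid progenitors, was higher with the mutant than with the wildtype (0.75 ± 0.18). Runx2 and Runx3 had no count in any library. In all, 2 of 3 tested genes of this list fell with the wildtype, and 1 when wildtype replicate 1, wildtype replicate 2 or empty vector replicate 2 was left out.

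Of the Ikaros family, Ikzf2 (Helios) averaged 9.04 CPM with the mutant, 2.26 CPM with wildtype GATA1 and 10.4 CPM with the empty vector, a log2 fold change of −2.18 ± 0.41 with the wildtype (adjusted p 0.00184 in edgeR) and of 1.99 ± 0.41 between mutant and wildtype. Ikzf4 (Eos) was higher with the mutant than with the wildtype (0.82 ± 0.19), and Ikzf5 was not called. Ikzf3 (Aiolos) had 11 counts over all libraries. The MYB relatives Mybl1 and Mybl2 were not called in any comparison in edgeR or in DESeq2, and 0 had an unadjusted p under 0.05. Mybl2, the cell cycle member of the family, averaged 30.7 CPM with the mutant, 33.1 CPM with wildtype GATA1 and 25.7 CPM with the empty vector.

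Of 13 tested relatives of ERG and ETV6, 5 fell with the wildtype and 0 rose in edgeR, with 0 higher at an unadjusted p under 0.05 and 0 in DESeq2. They were Ets2, Elf4 (−1.14 ± 0.17), Etv5 (−0.73 ± 0.15), Fli1 and Elf1; the last pair was named after its values were seen. Elf4, an ETS factor of lymphocyte and stem cell quiescence, was 50.1 CPM with the mutant, 18.8 CPM with wildtype GATA1 and 41.5 CPM with the empty vector. Fli1, the closest relative of ERG and a megakaryocyte factor, averaged 1.69, 1.09 and 2.61 CPM in the same order, and its fall (−1.26, adjusted p 0.0224) did not pass when wildtype replicate 1, wildtype replicate 2 or empty vector replicate 2 was left out (adjusted p up to 0.119). Leaving out any of those 3 libraries brought the count to 3. Elf1, an ETS factor of blood and vessels, had −0.58 (adjusted p 0.031), a call lost under 6 of 16 alternatives. Between mutant and wildtype, Elf4 (1.41), Ets2 (0.95) and Etv5 (0.64) were higher with the mutant, a count of 3. The count became 5 without wildtype replicate 3, and 6 with a replicate block, though not with both blocks fitted. The list's median log2 fold change was −0.35 with the wildtype, against −0.04 over all tested genes. Ets1 had no count in any library.

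The HOX genes on the list, of the family that usually partners MEIS1, were almost silent. Of 9 Hoxa and Hoxb genes on the list, Hoxb2 had 2 counts over all libraries and the other 8 had none. Among MEIS and PBX relatives, Meis3 fell with the wildtype (log2 fold change −1.48 ± 0.31), as did Tgif1, a related homeodomain repressor (−0.79 ± 0.15), and Pbx2 (−0.71 ± 0.19). The Pbx2 call did not hold in the fit of the 6 libraries, nor when replicate 2 of the wildtype or of the empty vector was left out. Of 7 tested genes of this list 3 fell, or 5 without empty vector replicate 1, and the list's median was −0.48. Between mutant and wildtype 5 were higher with the mutant (these 3, Tgif2 and Pknox1, the last named after its value was seen), but 2 with mutant replicates 1 and 2 summed or without mutant replicate 2, and 3 without mutant replicates 1 or 3 or wildtype replicate 2.

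Partners of LYL1 and TAL1 changed in both directions with the wildtype, with 3 of 11 tested genes higher and 2 lower. Ldb1, which encodes the adaptor that bridges LMO2 complexes, averaged 24.6 CPM with the mutant, 37.0 CPM with wildtype GATA1 and 19.1 CPM with the empty vector, a log2 fold change of 0.95 ± 0.14 with the wildtype (adjusted p 0.000297 in edgeR). Ssbp2, which binds LDB1, rose by 0.46 ± 0.10. Tcf4, an E protein, fell by 0.93 on the log2 scale. Lmo4, a LIM adaptor, had −0.60 ± 0.16, a call lost without any one of wildtype replicate 1, wildtype replicate 2 and empty vector replicate 2. Tal1, named with Lmo2 and Lmo4 after their values were seen, had 0.34 at an adjusted p of 0.0495, a call lost under 11 of 16 alternatives, and Lmo2 had 0.12 and was not called. Without any one of those 3 libraries 1 gene of the list was lower. The list's median was 0.10. Between mutant and wildtype, Tcf4 was higher with the mutant (0.97), and Ldb1 (−0.59), Ssbp2 (−0.43) and Lmo2 (−0.48) were lower. The count of 1 higher became 2 or 3 under 6 of 17 alternatives, among them those without wildtype replicate 3, empty vector replicate 1 or empty vector replicate 3.

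Of 11 tested progenitor regulators of other families, 5 fell and 0 rose in edgeR with the wildtype, with 1 higher at an unadjusted p under 0.05 and 1 in DESeq2. Gata2, the stem cell GATA factor that binds with RUNX1, ERG and LYL1, averaged 286 CPM with the mutant, 103 CPM with wildtype GATA1 and 328 CPM with the empty vector, a log2 fold change of −1.67 ± 0.14 with the wildtype and of 1.48 between mutant and wildtype. Zfp36l2, an mRNA decay factor of erythroid progenitor self-renewal, had 43.8, 19.3 and 39.0 CPM in the same order (log2 fold change −1.02 ± 0.13 with the wildtype), and Egr1, an immediate early factor, had −1.30 ± 0.17. Zbtb16, the PLZF repressor, had −1.25 ± 0.23 with the wildtype and was higher with the mutant than with the wildtype by 1.62 ± 0.23. The fifth was Myc. The list's median was −0.53. Mecom, Hlf and Prdm16, which mark long-term stem cells, had no count in any library. Of 11 surface markers used to sort stem and progenitor cells, by presence or absence, only Kit passed the filter. Slamf1, Ly6a, Cd48 and Cd93 had no count in any library.

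Of 15 genes known as targets of the members in other blood cells, 8 were tested, and with the wildtype 4 fell (Kit, Pf4, Myc and Itga2b, the last named after its value was seen) and 1 rose. Kit, the SCF receptor, averaged 602 CPM with the mutant, 248 CPM with wildtype GATA1 and 661 CPM with the empty vector. Pf4, a platelet gene under RUNX1 and ETS factors, had a log2 fold change of −1.73 ± 0.20 with the wildtype. Pim1, a kinase of cytokine signalling, rose (0.61 ± 0.10). Myc, a driver of growth that is also on the regulator list, had −0.53 ± 0.13 with the wildtype (lost without wildtype replicate 1) and was higher with the mutant than with the wildtype by 0.63 ± 0.13. The summed CPM of 10 mast cell markers was 11.2 to 14.7 with the mutant, 4.04 to 5.58 with the wildtype and 31.2 to 36.3 with the empty vector, with 3 of 10 markers (Mcpt8, Mcpt4 and Tpsb2) at 0 in all libraries. Of these 10, 3 were tested, and Cpa3, a mast cell protease, made up most of the sum, at 11.7, 3.87 and 31.4 CPM in mutant, wildtype and empty vector libraries. Ms4a2 averaged 0.143, 0.363 and 1.72 CPM and Hdc 0.968, 0.587 and 0.73 CPM in the same order. Megakaryocyte marker sums were 69.0 to 81.3, 44.0 to 54.0 and 90.2 to 109 CPM in the same order, with 2 of 10 (Gp1bb and Vwf) at 0. The part of such cells in the members' differences was not tested.

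**Figure D4:**
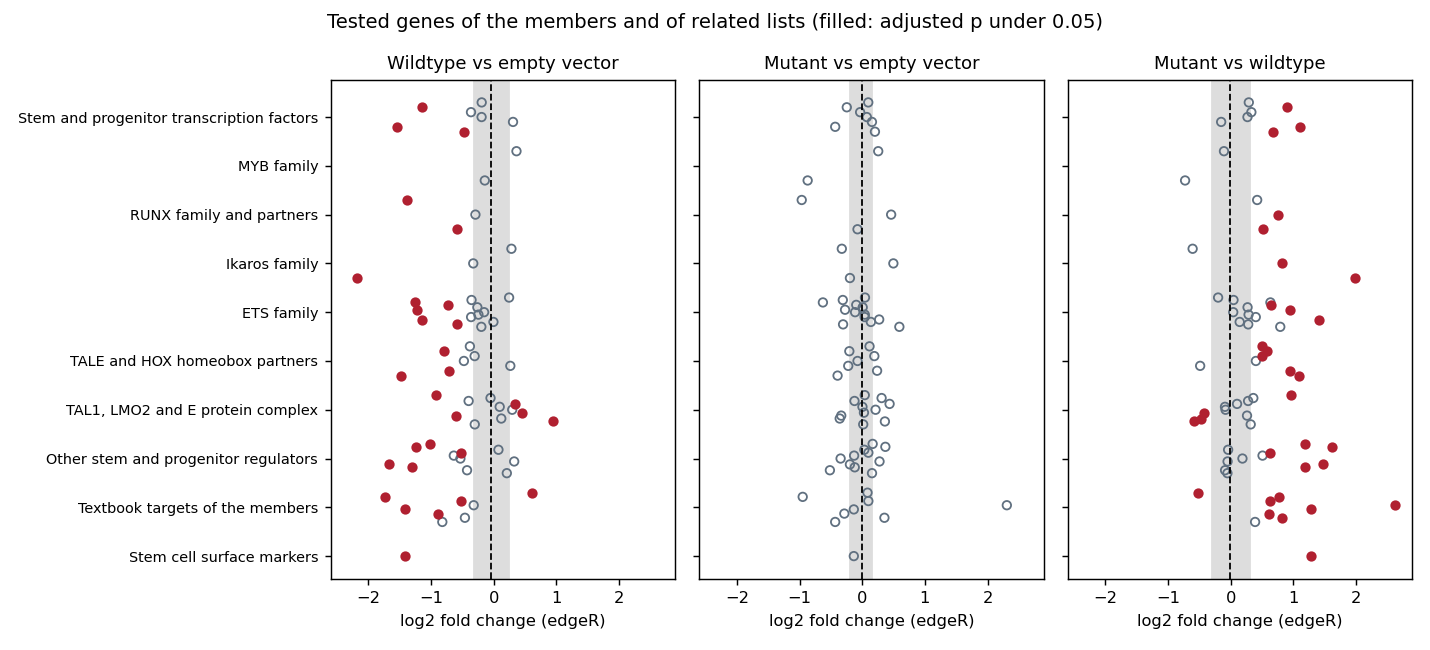
log2 fold change of each tested gene of the members and of the related lists in the 3 comparisons; each point is a gene, filled at an adjusted p under 0.05 in edgeR, the dashed line is the median of all 9978 tested genes and the grey band spans their 25th to 75th percentile. In the middle panel, mutant against empty vector, no point is filled, while the outer panels hold filled points mostly on opposite sides of the line.

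The genes whose pattern over the 9 libraries was most like that of a member were found by the root mean square difference of log2 CPM, each gene centred on its own mean, among 8111 tested genes of at least 5 CPM. Nearest to Myb were Ubash3b (0.08), Dapp1 (0.09) and Ets2 (0.10). Nearest to Hhex were Ly75 (0.10), Gfpt1 (0.12) and Soat1 (0.13). Nearest to Etv6 were Copa, Arhgap1 and Cnnm4, each at 0.06. Among the genes nearest to Runx1, Lyl1 and Ikzf1 the difference ranged from 0.04 for Nom1 and Runx1 to 0.06 for Ubn1 and Ikzf1. Meis1 and Erg were too low for this search. These genes share libraries and depth with the members, so the likeness is a description of these libraries.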

How the data were processed

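The authors deposited 1 raw count table, genes by 9 libraries, whose headers name group and replicate. Libraries were made with Smart-seq2 and Nextera-based indexing, per the labels' protocols. STAR and the builds GRCm38.p4 and hg19 are named in the submitters' processing notes; the version, counting tool and annotation are not stated there. Reads shared with other genes may have been split or dropped.

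Counts were tested with edgeR 4.0.16 (R 4.3.3): TMM factors, filterByExpr, 1 mean per group, glmQLFit and glmQLFTest, leaving 6 residual degrees of freedom. Human GATA1 was not tested, and the library totals of the fits and of CPM were summed over the genes that passed the filter, without it. P-values were Benjamini-Hochberg adjusted over 9978 genes per comparison, and a call is an adjusted p under 0.05. SE was taken from the fold change and the F statistic (their ratio, with F under a root), and is approximate. Log2 CPM used a prior count of 2. A count of 0 allows up to 3 counts, or 0.169 to 0.289 CPM per library. The submitters call the libraries biological replicates but do not say that they came from separate cultures, so p-values reflect how far these libraries spread, which may be technical. DESeq2 1.42.0 was an alternative.

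The members and lists were chosen with earlier results of these data known. Named genes were the members, up to 3 called genes of smallest p per list and comparison, the nearest tested protein-coding neighbours, and the 3 most similar patterns per member, leaving out Gm and Rik genes among the patterns; exceptions are marked. Same-numbered mutant and wildtype libraries deviated together from their group means (correlations 0.171, 0.286 and 0.533), though mutant 1 with wildtype 2 (0.24) and mutant 2 with wildtype 1 (0.223) did so too. As each same-numbered pair was above 0.1, these groups were also fitted with a replicate block; pairs with the empty vector had negative correlations. Coordinates and exon lengths are from GENCODE M21 (GRCm38) and promoters from RefSeq (GRCm38.p6).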

Additional observations from a re-analysis of the deposited data

How the results depend on the processing

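Of the members' calls, the falls of Myb and Hhex with the wildtype and the higher levels of Hhex, Myb and Etv6 with the mutant than with the wildtype held under every alternative run; the fall of Etv6 with the wildtype did not. Members called higher with the wildtype numbered 0, and 1 with RLE size factors, 1 in DESeq2 and 0 to 1 leaving out single libraries. Members called lower with the mutant against the empty vector numbered 0, and 0 to 1 leaving out single libraries. With the replicate block in the 6 mutant and wildtype libraries, added after seeing the data, 5 members were higher with the mutant and 4740 genes were called, against 2580. With the block in all 9 libraries the mutant changed 14 genes, against 27, and with mutant replicates 1 and 2 summed 11, with DESeq2 102 and with no low-count filter 415. Mutant against wildtype had 1551 calls with those replicates summed. Leaving out single libraries, all calls ran from 1438 to 3255 with the wildtype, from 7 to 837 with the mutant, and from 1471 to 3158 between mutant and wildtype. No called member reversed its direction. Causes were not tested. Depth limits Erg and Meis1, at 0 to 20 counts per library.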
